A study of Mus musculus with 21 samples.

Results

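Transcripts of 10 genes for matrix metalloproteases and their tissue inhibitors were followed in 2 mouse cell lines exposed to acrylamide or to medium conditioned by microglia. The genes were picked by name, as rows of a count table of 24263 gene symbols, with earlier results of these data known. They are the inhibitors Timp1, Timp2 and Timp3, the metalloproteases Mmp2, Mmp3, Mmp14 and Mmp19, and the secreted proteases Adamts1, Adamts2 and Adamts5. Acrylamide is a small electrophile used to make polymers, and it damages nerves.

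RNA was sequenced from 21 libraries in 7 groups of 3. The 1C11NE cells, labelled as neurons, come from strain 129 1C11 stem cells led along the noradrenergic program for 12 days with dibutyryl cAMP, DMSO and a cyclohexane carboxylic acid. ACR-CM cells received medium conditioned by acrylamide-exposed BV2 microglia. PBS-CM+ACR cells received medium of vehicle-exposed BV2 microglia with 1 mM acrylamide added, and PBS-CM cells received that medium alone. ACR cells received 1 mM acrylamide, and PBS cells the vehicle, phosphate-buffered saline. BV2 cells, a microglial line labelled as strain C57BL/6, received 1 mM acrylamide (BV2_ACR) or vehicle (BV2_PBS). Exposure lasted 24 h in every group.

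Several limits of these models bear on the values. Each line is a cultured line, and the labels do not say that replicates came from separate cultures, so p-values cover only the scatter among the libraries at hand, part or all of which may be technical. Whether acrylamide remained in the ACR-CM medium is not stated. They name different base media for the lines, so conditioned and unconditioned groups may also differ in base medium. In bulk RNA, fewer cells of a type and less RNA per cell cannot be told apart.

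The labelled cell types were set against marker genes as CPM, the counts of a gene scaled to a shared total. The 15 microglial markers summed to 4863 to 5820 CPM in BV2_ACR and 5344 to 6140 CPM in BV2_PBS, with none at 0. In 1C11NE the 6 measured noradrenergic markers (Slc6a2, Ddc, Phox2a, Hand2, Gata3 and Slc18a2) summed to only 4.76 to 13.7 CPM, and Th and Dbh were not analysed here. The 9 general neuronal markers summed to 11.3 to 20.4 CPM. The 11 measured stromal markers, mostly the collagen gene Col1a2, summed to 509 to 2711 CPM. Markers of the labelled neuronal type were thus low in 1C11NE relative to the stromal ones. In BV2_PBS the noradrenergic markers summed to 2.23 to 5.33 CPM, a range that overlapped 1C11NE. The general neuronal markers summed to 75.5 to 79.5 CPM in BV2_PBS, all from Uchl1, above 1C11NE.

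Metalloproteases are zinc enzymes that cut collagens, proteoglycans and cell-surface proteins, and most are made as inactive precursors. TIMPs block their active site, and Timp2 has a further role, since with Mmp14 it forms the cell-surface complex that activates the Mmp2 precursor. The ADAMTS enzymes carry thrombospondin repeats and include proteoglycan-cleaving enzymes and a procollagen-processing enzyme. In nervous tissue these proteins remodel the matrix around neurons and vessels, and microglia and astrocytes are known sources of several of them.

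Promoter sequences are shown for the 4 genes with calls among 1C11NE groups that had an entry in the RefSeq table (GRCm38.p6), so that the genes that moved can be read side by side. Each runs from 250 bases before to 50 bases after the gene's start, 5′ to 3′ on the gene's strand. Capitals mark matches, on either strand, to the GC box GGGCGG, the TATA box TATAAA, the AP-1 motif TGANTCA and the antioxidant response element core TGACNNNGC.
Timp1, chrX:20869916-20870215, plus strand: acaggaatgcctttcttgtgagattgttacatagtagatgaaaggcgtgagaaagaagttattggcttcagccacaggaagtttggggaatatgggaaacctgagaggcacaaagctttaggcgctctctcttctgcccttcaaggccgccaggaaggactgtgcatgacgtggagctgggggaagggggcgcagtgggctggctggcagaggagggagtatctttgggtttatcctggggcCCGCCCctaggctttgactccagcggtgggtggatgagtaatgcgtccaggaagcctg
Timp2, chr11:118355362-118355661, minus strand: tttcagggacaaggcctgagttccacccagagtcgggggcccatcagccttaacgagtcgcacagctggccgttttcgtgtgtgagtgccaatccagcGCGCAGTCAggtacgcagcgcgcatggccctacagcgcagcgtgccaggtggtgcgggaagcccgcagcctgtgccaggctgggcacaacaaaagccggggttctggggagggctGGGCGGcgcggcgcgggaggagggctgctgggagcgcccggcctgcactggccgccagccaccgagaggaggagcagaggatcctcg
Timp3, chr10:86300162-86300461, plus strand: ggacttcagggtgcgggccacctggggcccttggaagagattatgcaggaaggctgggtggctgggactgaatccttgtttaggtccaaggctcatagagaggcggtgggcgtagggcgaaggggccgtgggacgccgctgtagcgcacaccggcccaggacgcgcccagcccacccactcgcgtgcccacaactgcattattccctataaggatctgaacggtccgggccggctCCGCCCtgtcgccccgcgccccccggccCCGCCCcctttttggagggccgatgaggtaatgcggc
Adamts1, chr16:85803064-85803363, minus strand: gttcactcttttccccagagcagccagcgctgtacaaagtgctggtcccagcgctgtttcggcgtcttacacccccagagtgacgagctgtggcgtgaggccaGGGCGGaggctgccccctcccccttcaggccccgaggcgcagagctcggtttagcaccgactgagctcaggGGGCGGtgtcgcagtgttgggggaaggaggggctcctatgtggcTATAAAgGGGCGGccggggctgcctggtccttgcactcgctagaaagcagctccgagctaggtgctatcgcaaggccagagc

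The Timp1 window held 1 GC box and 8 CpG pairs at 55% GC, the least GC-rich of the 4 windows. Timp2 held 1 GC box and 1 antioxidant response element core in a window of 25 CpG pairs, and Timp3 held 2 GC boxes among 24 CpG pairs. Adamts1 held 3 GC boxes and a TATA box directly before the last of them. No marked matches overlapped each other. Of the 10 genes, 7 had a promoter entry, and Mmp2, Mmp19 and Adamts5 had none. The GC box was found in 6 of these 7 windows and in 35.7% of 32851 mouse promoters of the same length. The antioxidant core was in 2 of 7 against 12.4% of all, the TATA box in 2 of 7 against 13.6%, and the AP-1 motif in 1 of 7 (Mmp3) against 7.81%. A match is a description of these letters only.

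Levels below are TMM-scaled CPM, computed over the 15 libraries of 1C11NE or the 6 of BV2 from deposited counts, with library totals of 2762287 to 7391991. A gene was called when edgeR's quasi-likelihood test gave a Benjamini-Hochberg adjusted p under 0.05 over all genes of the fit, 12550 in 1C11NE and 10890 in BV2. A pair of conditioned-medium libraries stood apart from the rest. They were replicate 1 of PBS-CM and replicate 3 of PBS-CM+ACR, at -26.6 and -17.5 on the first principal component, near libraries without conditioned medium, against 12.9 to 39.1 for the other 7. Mmp3, stromelysin-1, had 1 read in PBS replicate 2 and 0 in the other 20 libraries, and was not tested. The other 9 genes passed the low-count filter in 1C11NE, and 3 of them (Timp2, Mmp19 and Adamts1) passed it in BV2. With only 3 libraries a group, lack of overlap between groups is a description below and not a call. The share of all genes without overlap was not computed.

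**Figure D1:**
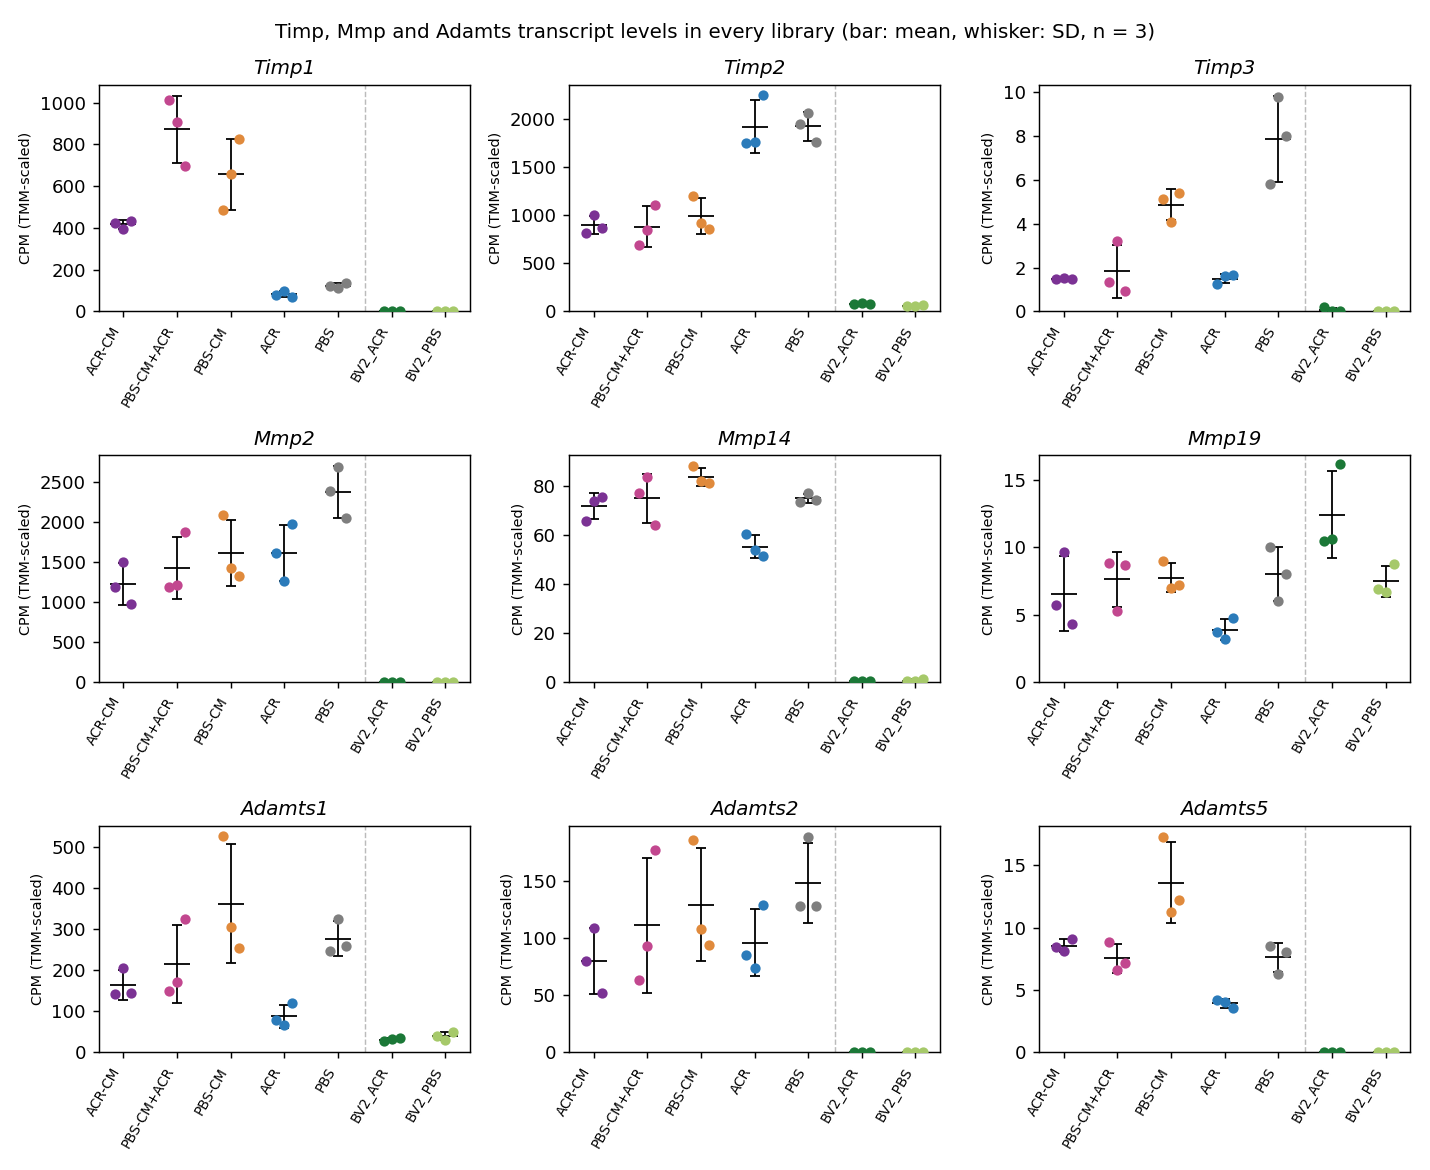
TMM-scaled CPM (y axis, linear, from 0) of 9 genes in every library of the 7 groups (x axis); points are libraries, horizontal bars means and whiskers SDs of 3 libraries, and the dashed line parts 1C11NE from BV2. All 9 conditioned-medium libraries of 1C11NE had Timp1 at 394 to 1013 CPM, against at most 135 CPM without conditioned medium, and Timp2 was lower in all 9 than in any library without it.

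Acrylamide given alone to 1C11NE cells lowered 2 of the 9 tested genes. Timp3 and Adamts1 fell, no gene rose, and all 9 estimates lay below 0 (Timp2, close to 0, changed sign in 5 of 13 alternatives), with a median log2 change of -0.63 against -0.00 over all genes tested. Over all genes, 1.18% were called, 0.717% as lower and 0.462% as higher.

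Timp3 encodes a matrix-bound inhibitor that acts on several ADAMTS and ADAM enzymes as well as on metalloproteases. It stood at 1.24, 1.61 and 1.65 CPM in ACR, from 5, 8 and 7 reads. In PBS it stood at 5.83, 9.77 and 8.01 CPM, from 39, 68 and 35 reads. Every ACR library lay below every PBS library, and the ACR values lay close together. The log2 change was -2.36 ± 0.37 (5.15-fold lower, edgeR adjusted p = 0.00215), and the call remained without any 1 of the 6 libraries. An overlapping gene on the other strand, Syn3, had 0 to 5 reads per library. The 5 measured astrocyte markers summed to 25.3 to 35.1 CPM in ACR against 84.5 to 104 CPM in PBS. S100b and Slc1a2 were at 0 in ACR, but had only 2 and 5 reads in PBS. Slc1a3, a glutamate transporter, made up nearly all of these sums, averaging 27.1 CPM in ACR and 94.4 CPM in PBS, and its part in the result was not tested. The microglial markers summed to 13.7 to 17.7 CPM in ACR against 7.02 to 12.4 CPM in PBS.

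The other inhibitors were not called. Timp1, a secreted inhibitor of most soluble metalloproteases, had 79.8, 97.6 and 69.1 CPM in ACR against 120, 114 and 135 CPM in PBS. These groups did not overlap, with a log2 difference of -0.58 ± 0.23 that missed the threshold (edgeR adjusted p = 0.300). Timp2 averaged 1920.5 ± 280 CPM in ACR and 1924 ± 153 CPM in PBS, with overlapping libraries.

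Among the proteases, Adamts1, which cleaves the proteoglycans aggrecan and versican, stood at 78.3, 66.9 and 120 CPM in ACR. In PBS it stood at 248, 326 and 259 CPM. The highest ACR library lay well below the lowest PBS library. On the log2 scale Adamts1 changed by -1.65 ± 0.33 (3.14-fold lower, edgeR adjusted p = 0.0161). This call ended without replicate 1 or 2 of either group, where adjusted p reached 0.119. The stromal markers moved the same way, at 509 to 816 CPM in ACR against 1538 to 2023 CPM in PBS. Most of this was Col1a2, averaging 577 CPM in ACR and 1583 CPM in PBS. Dcn, Postn and Tagln were at 0 in ACR, but had only 7, 0 and 2 reads in PBS. The part of these markers in the result was not tested.

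Adamts5, a main aggrecan-cleaving enzyme of cartilage, had 4.23, 4.02 and 3.54 CPM in ACR against 8.51, 6.32 and 8.01 CPM in PBS. The groups did not overlap, and the log2 difference was -0.95 ± 0.25 (edgeR adjusted p = 0.0726). Adamts2, which removes the amino-terminal propeptide of fibrillar procollagens, overlapped narrowly between ACR (85.3, 73.9 and 129 CPM) and PBS (129, 189 and 128 CPM). Within each library, Adamts1 gave 0.905 to 0.929 reads per Adamts2 read in ACR and 1.72 to 2.03 in PBS, so the ratio of the pair did not overlap between the groups.

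Mmp14, the membrane-bound collagenase that activates Mmp2, had 60.4, 53.6 and 51.4 CPM in ACR against 73.3, 76.8 and 74.2 CPM in PBS. Its log2 difference was -0.44 ± 0.15 with no overlap and was not called (edgeR adjusted p = 0.193). Mmp2, gelatinase A, had 1619, 1270.1 and 1974 CPM in ACR against 2389.7, 2698 and 2049 CPM in PBS, again without overlap and not called. Mmp19 had 3.73, 3.21 and 4.72 CPM in ACR against 10.0, 6.03 and 8.01 CPM in PBS, with a log2 difference of -1.05 ± 0.33 (edgeR adjusted p = 0.154). Mmp19 shares exon sequence with Tmem198b on the opposite strand, which had 62 to 360 reads per library, and strand use in counting is not given, so Mmp19 values are uncertain throughout.

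In the wider protease network, calls with acrylamide alone were all decreases. Of 5 tested substrates of the ADAMTS enzymes, 3 fell and none rose. Vcan, the proteoglycan versican that Adamts1 cleaves, averaged 25.4 ± 2.9 CPM in ACR and 90.7 ± 15.7 CPM in PBS (log2 change -1.84 ± 0.18). Col3a1 and Col1a1, fibrillar procollagens, changed by -2.38 ± 0.39 and -1.29 ± 0.27. Of 7 other serpins, inhibitors and cofactors, 2 fell. They were Serpinf1, a non-inhibitory serpin, by 0.97 ± 0.18 and Pcolce, an enhancer of procollagen processing, by 0.83 ± 0.17. None of 5 other metalloproteases, 8 other ADAMTS and ADAMTS-like genes, 7 ADAM genes or 5 plasminogen-activation and convertase genes was called.

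**Figure D2:**
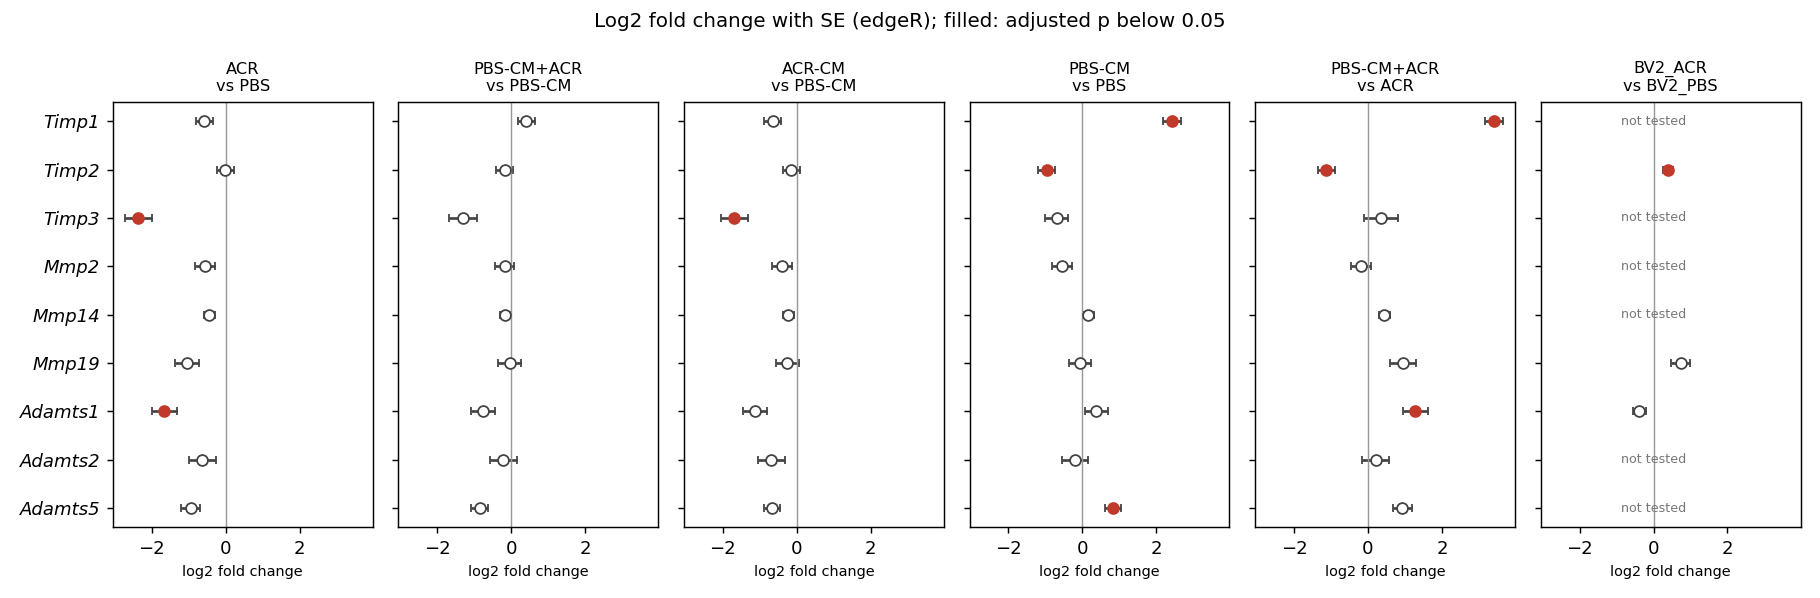
Log2 fold change (x axis) of 9 genes (y axis) in 6 comparisons, with SE as whiskers; filled points are called by edgeR at an adjusted p under 0.05 and open points are not. Timp1 stands at 2.42 and 3.41 in the comparisons that add conditioned medium, and Timp3 lies left of 0 in the 3 acrylamide comparisons of 1C11NE, called in 2 of them.

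Medium conditioned by vehicle-exposed BV2 cells raised 2 genes and lowered 1 in 1C11NE cells. Timp1 and Adamts5 rose and Timp2 fell in PBS-CM relative to PBS, while over all genes 4.55% were called, 2.49% as higher and 2.06% as lower. Of 9 tested genes, 4 estimates lay above 0 and 5 below, with a median of -0.06 against -0.00 over all genes.

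Timp1 reached 485, 659.9 and 825 CPM in PBS-CM, against 120, 114 and 135 CPM in PBS. The lowest PBS-CM library, replicate 1, was still above every PBS library by a wide margin. The log2 change was 2.42 ± 0.24 (5.35-fold higher, edgeR adjusted p = 1.34e-05) and 2.59 ± 0.18 without the 2 libraries that stood apart. The call remained without any 1 of the 6 libraries compared. Syn1, an overlapping gene on the other strand with no shared exon, had 4 to 36 reads per library. Microglial markers summed to 15.01 to 17.1 CPM in PBS-CM against 7.02 to 12.4 CPM in PBS. The PBS-CM range overlapped that of ACR, which had no conditioned medium. Aif1, Ptprc, C1qa, C1qb, C1qc and Spi1 were at 0 in PBS-CM and also in PBS. Ctss, Tyrobp, Fcer1g and Laptm5 had 34, 11, 2 and 2 reads in PBS-CM and 0 in PBS and ACR. The part of these markers in the result was not tested. BV2_PBS cells had 0 Timp1 reads in all 3 libraries.

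Timp2 had 1200.4, 915 and 858 CPM in PBS-CM, against 1945, 2064 and 1762 CPM in PBS. The groups did not overlap, and the highest PBS-CM value came from replicate 1. On the log2 scale Timp2 changed by -0.96 ± 0.23 (1.94-fold lower, edgeR adjusted p = 0.0266). It was -1.12 ± 0.19 without the 2 libraries that stood apart. The call ended without any 1 PBS library or without PBS-CM replicate 2 or 3, with adjusted p up to 0.134. The astrocyte marker sum, nearly all Slc1a3, was 33.9 to 40.2 CPM in PBS-CM against 84.5 to 104 CPM in PBS. Gfap and S100b were at 0 in PBS-CM, but had only 2 reads each in PBS. The general neuronal sum was 17.4 to 20.4 CPM in PBS-CM against 11.7 to 14.1 CPM in PBS. The part of these markers in the result was not tested. Reads of Timp1 per read of Timp2 in the same library were 0.404 to 0.961 in PBS-CM and 0.0550 to 0.0766 in PBS, which left the ratio without overlap.

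Adamts5 had 17.3, 11.3 and 12.2 CPM in PBS-CM, from 81, 66 and 61 reads, against 8.51, 6.32 and 8.01 CPM in PBS, from 57, 44 and 35 reads. Every PBS-CM library lay above every PBS library, and replicate 1 was the highest. Adamts5 changed by 0.83 ± 0.21 on the log2 scale (1.78-fold higher, edgeR adjusted p = 0.0365) and 0.63 ± 0.23 without the libraries that stood apart (adjusted p = 0.0434). The call ended without any 1 PBS library or without PBS-CM replicate 2 or 3, with adjusted p up to 0.190. It was also lost with no low-count filter and in a fit of only the groups compared.

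The other proteases were not called with conditioned medium alone. Mmp2 had 2095, 1431 and 1327 CPM in PBS-CM against 2049 to 2698 CPM in PBS, and PBS-CM replicate 1 was the library that overlapped. Its log2 difference was -0.56 ± 0.27 (edgeR adjusted p = 0.201), and -0.79 ± 0.22 without the libraries that stood apart, where it was called (adjusted p = 0.0108). Timp3 stood at 5.12, 4.09 and 5.41 CPM in PBS-CM, below each of the 3 PBS libraries, with a log2 difference of -0.69 ± 0.31 (edgeR adjusted p = 0.167). Adamts1 had 527, 305 and 254 CPM in PBS-CM against 248 to 326 CPM in PBS. Adamts2 had 187, 108 and 94.4 CPM in PBS-CM against 128 to 189 CPM in PBS, and in both genes PBS-CM replicate 1 was far above the other PBS-CM libraries. Mmp14 averaged 83.5 ± 3.8 CPM in PBS-CM and 74.8 ± 1.8 CPM in PBS, and Mmp19 averaged 7.72 ± 1.08 CPM in PBS-CM and 8.02 ± 1.99 CPM in PBS.

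Outside the 10 genes, few protease genes changed with PBS-CM. Of 8 other ADAMTS and ADAMTS-like genes, Adamts7 fell, averaging 5.94 ± 2.33 CPM in PBS-CM and 25.9 ± 2.1 CPM in PBS (log2 change -2.13 ± 0.25). Of 5 plasminogen-activation and convertase genes 2 fell, the urokinase receptor Plaur by 1.41 ± 0.23 and tissue plasminogen activator Plat by 0.78 ± 0.20. Of 7 other serpins, inhibitors and cofactors, Pcolce fell by 0.72 ± 0.17. No other metalloprotease, ADAM gene or ADAMTS substrate was called.

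**Figure D3:**
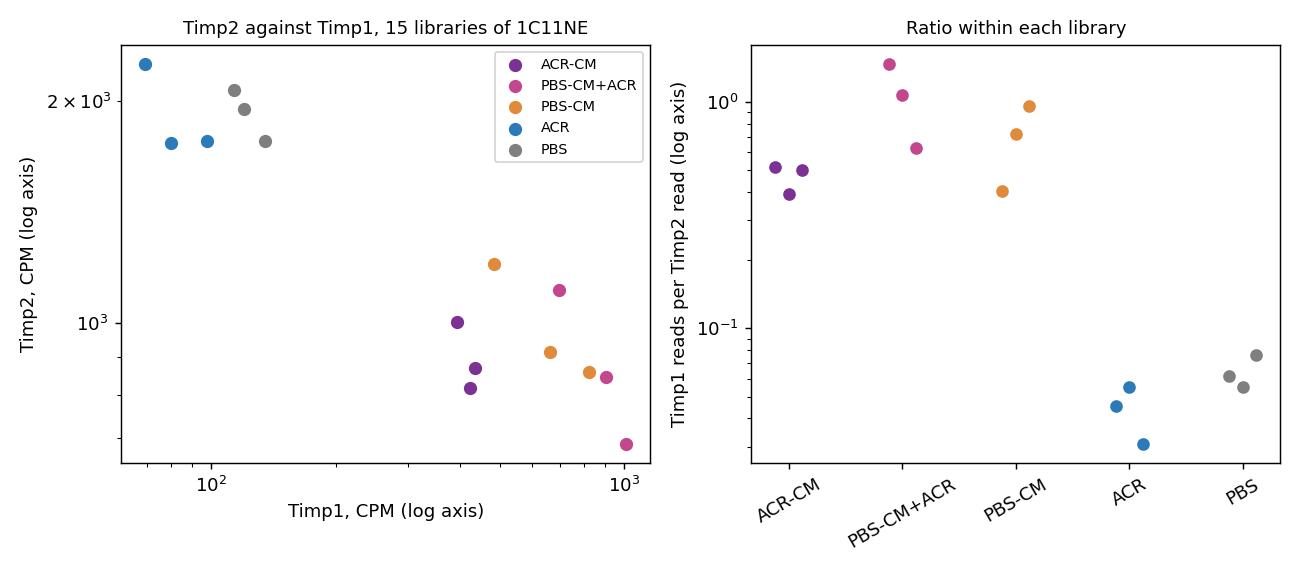
Left, Timp2 against Timp1 in the 15 libraries of 1C11NE (both axes in CPM, log scale), coloured by group; right, Timp1 reads per Timp2 read in each library (log axis). The 9 conditioned-medium libraries lie at high Timp1 and low Timp2, apart from the 6 others, and their ratios run from 0.393 to 1.48, against at most 0.0766 without conditioned medium.

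Adding acrylamide to conditioned medium gave no call among the 9 tested genes in PBS-CM+ACR relative to PBS-CM, with 0.375% of all genes called. By edgeR, 3 of them (Timp3, Adamts1 and Adamts5) had an unadjusted p under 0.05, and DESeq2 and limma-voom each called 0. Timp3 had 1.36, 3.20 and 0.933 CPM in PBS-CM+ACR, from 4, 14 and 3 reads, against 24, 24 and 27 reads in PBS-CM. All 3 libraries with acrylamide lay below those without it, and replicate 2 lay nearest to them. The log2 difference was -1.31 ± 0.38 (edgeR adjusted p = 0.240) and -0.95 ± 0.44 without the 2 libraries that stood apart.

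Adamts5 had 8.86, 6.63 and 7.16 CPM in PBS-CM+ACR, below the lowest PBS-CM library at 11.3 CPM, with a log2 difference of -0.85 ± 0.23 (edgeR adjusted p = 0.156). Adamts1 had 151, 171 and 324 CPM in PBS-CM+ACR, where replicate 3, which stood apart, reached into the PBS-CM range. Its log2 difference was -0.75 ± 0.32 (edgeR adjusted p = 0.520). Timp1 averaged 872 ± 161 CPM in PBS-CM+ACR and 657 ± 169.7 CPM in PBS-CM, with overlap. Timp2 averaged 880.0 ± 214 CPM in PBS-CM+ACR and 991 ± 184 CPM in PBS-CM, also with overlap. Mmp2, Mmp14, Mmp19 and Adamts2 also overlapped between these groups.

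Medium of acrylamide-exposed microglia lowered 1 of the 9 genes relative to PBS-CM, while 0.924% of all genes were called, 0.478% as lower and 0.446% as higher. Timp3 stood at 1.47, 1.53 and 1.49 CPM in ACR-CM, from 8, 7 and 8 reads, against 5.12, 4.09 and 5.41 CPM in PBS-CM. The ACR-CM libraries were nearly equal and lay below every PBS-CM library. On the log2 scale this was a change of -1.68 ± 0.37 (3.21-fold lower, edgeR adjusted p = 0.0426). The call ended without any 1 of the 6 libraries, with adjusted p of 0.0647 to 0.186. PBS-CM also served as the control of the preceding comparison. The 5 measured astrocyte markers summed to 17.8 to 24.6 CPM in ACR-CM against 33.9 to 40.2 CPM in PBS-CM, with Gfap and S100b at 0 in both groups. The stromal sum was 762 to 1224 CPM in ACR-CM against 1314 to 2711 CPM in PBS-CM, and the general neuronal sum 14.2 to 14.8 CPM in ACR-CM against 17.4 to 20.4 CPM in PBS-CM, and the part of these markers in the result was not tested.

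All 9 estimates for ACR-CM relative to PBS-CM lay below 0 (that of Timp2 changed sign in 2 of 13 alternatives), with a median of -0.65 against -0.03 over all genes. Timp1 had 423, 394 and 434 CPM in ACR-CM, under the lowest PBS-CM library at 485 CPM. Its log2 difference was -0.65 ± 0.23 (edgeR adjusted p = 0.218), and it was called at -0.83 ± 0.18 without the libraries that stood apart (adjusted p = 0.0239). Adamts1 had 143, 207 and 144 CPM in ACR-CM, below all PBS-CM libraries, with a log2 difference of -1.14 ± 0.33 (edgeR adjusted p = 0.121). Adamts5 had 8.43, 8.11 and 9.11 CPM in ACR-CM, also without overlap, and its log2 difference was -0.66 ± 0.21 (edgeR adjusted p = 0.186). Outside the 10 genes, Plaur was the only called gene of the wider lists, higher by 1.17 ± 0.24 at 20.99 ± 0.79 CPM in ACR-CM and 9.21 ± 3.41 CPM in PBS-CM.

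ACR-CM and PBS-CM+ACR differ in whether acrylamide was given to the microglia that conditioned the medium or added to the medium afterwards. None of 9 genes was called by edgeR or limma-voom, 1 was called by DESeq2, 1 had an unadjusted p under 0.05, and 0.0159% of all genes were called. That gene was Timp1, at 394 to 434 CPM in ACR-CM and 696 to 1013 CPM in PBS-CM+ACR. The groups did not overlap, and the log2 difference of -1.06 ± 0.23 missed the threshold (edgeR adjusted p = 0.308) but was called at -1.22 ± 0.18 without the 2 libraries that stood apart (adjusted p = 0.00530). Timp2 averaged 897 ± 96 CPM in ACR-CM and 880.0 ± 214 CPM in PBS-CM+ACR.

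Conditioned medium in the presence of acrylamide raised Timp1 and Adamts1 and lowered Timp2, in PBS-CM+ACR relative to ACR. Over all genes 3.96% were called, 1.95% as higher and 2.01% as lower, and the median of the 9 genes was 0.44 against -0.00 over all genes. Timp1 had 1013, 906 and 696 CPM in PBS-CM+ACR against 79.8, 97.6 and 69.1 CPM in ACR. Replicate 3, which stood apart, was the lowest PBS-CM+ACR library but far above all ACR libraries. The log2 change was 3.41 ± 0.25 (10.6-fold higher, edgeR adjusted p = 2.94e-07) and the call remained without any 1 of the 6 libraries compared.

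Timp2 had 686, 845 and 1109 CPM in PBS-CM+ACR against 1754, 1764 and 2243 CPM in ACR, without overlap. The log2 change was -1.13 ± 0.23 (2.18-fold lower, edgeR adjusted p = 0.0121), and the call ended without replicate 3 of ACR or replicate 1 or 2 of PBS-CM+ACR (adjusted p up to 0.0818). Adamts1, at 151 to 324 CPM in PBS-CM+ACR and 66.9 to 120 CPM in ACR, changed by 1.28 ± 0.33 (2.44-fold higher, edgeR adjusted p = 0.0375). That call ended without replicate 1 or 2 of ACR, or 2 or 3 of PBS-CM+ACR (adjusted p up to 0.161), and the change was 0.88 ± 0.23 without the libraries that stood apart (adjusted p = 0.00879). Stromal markers summed to 657 to 1612 CPM in PBS-CM+ACR against 509 to 816 CPM in ACR, and these ranges overlapped. Dcn, Postn and Tagln, at 0 in ACR, had only 3, 1 and 3 reads in PBS-CM+ACR. The microglial sum was 20.1 to 25.6 CPM in PBS-CM+ACR against 13.7 to 17.7 CPM in ACR, and the astrocyte sum 16.02 to 22.1 CPM in PBS-CM+ACR against 25.3 to 35.1 CPM in ACR, both without overlap. The part of these markers in the results was not tested.

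Adamts5 (log2 difference 0.93 ± 0.26, edgeR adjusted p = 0.0549) and Mmp14 (0.44 ± 0.15, adjusted p = 0.106) were not called in PBS-CM+ACR relative to ACR. Their groups did not overlap, and both were called without the libraries that stood apart (adjusted p = 0.0209 for Adamts5 and 0.00791 for Mmp14). Among other genes of the network, Vcan and Col1a1 rose by 0.80 ± 0.18 and 1.12 ± 0.27, 2 of 5 substrates. Pcolce2 and Serpinf1 rose by 1.63 ± 0.25 and 0.69 ± 0.19, 2 of 7 serpins, inhibitors and cofactors. Of 8 other ADAMTS and ADAMTS-like genes, Adamts7 fell by 1.34 ± 0.26 and Adamts13 by 0.90 ± 0.25, and Adamtsl5 rose by 1.49 ± 0.40. Mmp15, a membrane-bound metalloprotease, fell by 2.33 ± 0.61 as 1 of 5. Plaur fell by 1.44 ± 0.23 and Plat by 0.80 ± 0.21, 2 of 5 plasminogen-activation and convertase genes. None of 7 ADAM genes was called.

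Whether conditioned medium altered the acrylamide response was tested as an interaction over the 4 groups concerned. None of the 9 genes was called by edgeR, DESeq2 or limma-voom, and 0% of all genes were called. By edgeR, Timp1 (0.99 ± 0.32) and Mmp19 (1.00 ± 0.46) were the 2 genes with an unadjusted p under 0.05, both with an adjusted p of 1.00. Timp3, called lower with acrylamide alone and not called with acrylamide in conditioned medium, was therefore not shown to differ between these settings (interaction 1.06 ± 0.55, edgeR adjusted p = 1.00).

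Across the 5 groups of 1C11NE, the order of mean Timp1 levels was PBS-CM+ACR, PBS-CM, ACR-CM, PBS and ACR. Of neighbours in that order, PBS-CM+ACR and PBS-CM overlapped, and the other 3 pairs did not. For Timp2 the ACR and PBS libraries overlapped at the upper level, and the PBS-CM, ACR-CM and PBS-CM+ACR libraries overlapped at the lower level. For Timp3 the order was PBS, PBS-CM, PBS-CM+ACR, ACR and ACR-CM, in which the last 3 overlapped. Counted within a library, Timp1 gave 0.371 to 0.850 reads per Mmp2 read in PBS-CM+ACR, 0.262 to 0.443 in ACR-CM, 0.232 to 0.621 in PBS-CM, 0.0350 to 0.0768 in ACR and 0.0421 to 0.0658 in PBS. This inhibitor-to-enzyme ratio overlapped between ACR and PBS and among the conditioned-medium groups, and not between the 2 sets.

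The Timp2 to Mmp2 read ratio had another order. It was 1.08 to 1.39 in ACR, 0.573 to 0.646 in PBS-CM and 0.765 to 0.860 in PBS. In ACR-CM it was 0.669 to 0.887, which overlapped PBS. In PBS-CM+ACR it was 0.575 to 0.693, which overlapped PBS-CM. The ACR values lay above those of each of the other groups. The Adamts1 to Mmp2 ratio was 0.0484 to 0.0608 in ACR, 0.192 to 0.252 in PBS-CM and 0.104 to 0.127 in PBS, with no overlap between these 3 groups. It was 0.120 to 0.147 in ACR-CM and 0.126 to 0.173 in PBS-CM+ACR, and both overlapped PBS.

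Genes with the most similar pattern were ranked by Pearson's r of log2 CPM over the 15 libraries of 1C11NE, among genes averaging at least 20 CPM. The libraries share their groups, so r mostly describes the group pattern and carries no p. Timp1 was closest to the matrix protein gene Sparc (0.971), Ctsc (0.960) and Id1 (0.959). Timp2 was close to Fam43a (0.986) and Sik1 (0.981). Mmp2 was closest to Creb3l2 (0.970), Pdzrn3 (0.968) and Cxxc5 (0.967), and Adamts1 to the collagen gene Col1a2 (0.951), Pappa2 (0.951) and Pcdh7 (0.950). Adamts2 was closest to Adgrb2 (0.967), Man2a2 (0.964) and Axl (0.961). Mmp14 had the weakest neighbours, Anxa8 (0.894), Prr11 (0.892) and Idh2 (0.885).

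In BV2 microglia, acrylamide raised Timp2, the 1 called gene of 3 tested, in a comparison where 16.5% of all genes were called, 7.17% as higher and 9.33% as lower. Timp2 had 79.5, 89.2 and 73.8 CPM in BV2_ACR against 58.5, 56.4 and 68.7 CPM in BV2_PBS. The groups did not overlap but lay close together. Timp2 changed by 0.40 ± 0.13 on the log2 scale (1.32-fold higher, edgeR adjusted p = 0.0480). The call ended without replicate 1 or 2 of either group (adjusted p up to 0.183) and was not made by DESeq2 or limma-voom.

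Mmp19 had 10.5, 10.6 and 16.2 CPM in BV2_ACR, from 56, 47 and 83 reads, against 6.93, 6.70 and 8.74 CPM in BV2_PBS, from 31, 26 and 41 reads. Every BV2_ACR library lay above every BV2_PBS library, and the log2 difference was 0.73 ± 0.25 (1.66-fold, edgeR adjusted p = 0.0518). Adamts1 averaged 31.4 ± 3.6 CPM in BV2_ACR and 40.9 ± 9.9 CPM in BV2_PBS, with overlap and a log2 difference of -0.39 ± 0.18 (edgeR adjusted p = 0.147). Timp1 had 3, 2 and 0 reads in BV2_ACR and 0 in each BV2_PBS library, and Timp3 had 1 read in all. Mmp2 and Adamts5 had 0 reads in all 6 libraries. Of the wider lists, the sheddases Adam17 and Adam10 rose by 0.68 ± 0.16 and 0.55 ± 0.15, 2 of 5 tested. Mmp9, gelatinase B, fell by 0.75 ± 0.24, averaging 7.22 ± 1.26 CPM in BV2_ACR and 12.2 ± 0.9 CPM in BV2_PBS, and was the only other metalloprotease tested. Of 4 other ADAMTS and ADAMTS-like genes, Adamtsl5 rose by 0.59 ± 0.16 and Adamts10 fell by 0.58 ± 0.18.

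**Figure D4:**
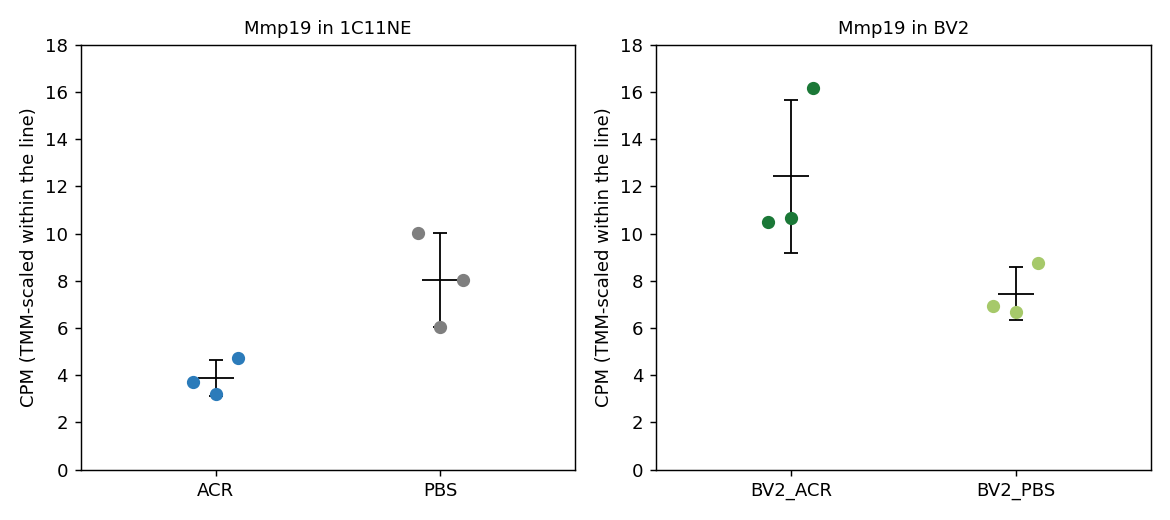
Mmp19 (CPM, linear axis from 0) in the acrylamide and vehicle groups of 1C11NE, left, and BV2, right; points are libraries, bars means and whiskers SDs of 3 libraries. The groups do not overlap in either line, with acrylamide at 3.21 to 4.72 CPM below vehicle in 1C11NE and at 10.5 to 16.2 CPM above vehicle in BV2; CPM were scaled within each line.

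The difference in acrylamide response between the lines was tested in a joint fit of 13569 genes. None of the 9 genes was called by edgeR or limma-voom, DESeq2 called 1, and 0.567% of all genes were called, 0.339% as higher and 0.228% as lower. Only Timp2, Mmp19 and Adamts1 had passed the low-count filter in BV2. The other genes passed the joint filter through 1C11NE alone and had few or no BV2 reads. Their lack of a call does not show like responses (SE of 827 for Mmp2 and 1372 for Adamts5). Mmp19 came nearest, with a response 1.78 ± 0.43 higher (log2) in BV2 than in 1C11NE (edgeR adjusted p = 0.0556). Adamts1 had 1.27 ± 0.44 (edgeR adjusted p = 0.161). Timp1 was the other gene with an unadjusted p under 0.05, and its reads in BV2 numbered 5 in all.

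Under vehicle, BV2 cells carried far less of most of these transcripts than 1C11NE cells. Of 9 tested genes 8 were lower in BV2_PBS than in PBS, where 79.2% of all genes were called, 43.1% as lower and 36.1% as higher. Timp1, Timp3, Mmp2, Mmp14, Adamts2 and Adamts5 passed the joint filter only through 1C11NE, so they could be called only as lower in BV2_PBS. Line, strain and base medium differ together and cannot be told apart. The median over all genes was -0.25 on the log2 scale, and the differences of the 8 called genes were far larger.

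Mmp2 had 0 reads in BV2_PBS and 43736 in the 3 PBS libraries, at least 2405-fold lower in BV2_PBS when each BV2_PBS library is set to a floor of 3 reads. On the same floor, Timp1 was at least 124-fold lower (0 against 2184 reads), Timp3 at least 7.95-fold (0 against 142) and Adamts5 at least 7.69-fold (0 against 136). Mmp14 had 7 reads in BV2_PBS and 1350.0 in PBS, a depth-scaled ratio of PBS to BV2_PBS of 97.8 with a 95% counting interval of 47.4 to 244. Adamts2 had 3 against 2738 reads, a ratio of 463 with an interval of 158 to 2247. These intervals cover counting error only.

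Timp2, Adamts1 and Mmp19 were the genes of this set with more than a few reads in BV2_PBS. On the joint scale, Timp2 was 21.997-fold lower in BV2_PBS than in PBS (log2 change -4.46 ± 0.23, edgeR adjusted p = 1.07e-13). Adamts1 was 4.74-fold lower (log2 change -2.24 ± 0.32, edgeR adjusted p = 1.41e-06). Mmp19 averaged 9.54 CPM in BV2_PBS and 7.18 CPM in PBS on that scale and was not called (edgeR adjusted p = 0.198). Of 6 other metalloproteases tested 5 were lower in BV2_PBS. Mmp17, Mmp28 and Mmp11 averaged 1.81, 0.459 and 0 CPM in BV2_PBS against 275, 135 and 8.31 CPM in PBS on the joint scale. Mmp9 went the other way, at 15.5 ± 0.9 CPM in BV2_PBS on the joint scale and 0 reads in every PBS library. With 0 reads in all 1C11NE libraries, Mmp9 passed the joint filter only through BV2 and could be called only as higher. The other 5 passed it only through 1C11NE and could be called only as lower.

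The wider network was also mostly lower in BV2_PBS than in PBS. A gene with almost no BV2 reads could again be called only as lower. All 5 tested substrates were lower, with Vcan at 0.204 CPM in BV2_PBS against 81.1 CPM in PBS, and Col5a1, Col1a2 and Col1a1 at 0 in BV2_PBS against 574, 1419 and 73.9 CPM in PBS. Of 8 other ADAMTS and ADAMTS-like genes 5 were lower and 3 higher. Adamts7, Adamtsl4 and Adamts13 averaged 0, 0.108 and 3.69 CPM in BV2_PBS against 23.2, 179 and 21.9 CPM in PBS, while Adamts4 was higher by 2.44 ± 0.40 on the log2 scale.

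Of 7 ADAM genes 4 were lower in BV2_PBS and 1 was higher. Adam10 changed by -2.53 ± 0.16 and Adam9 by -3.76 ± 0.39, Adam22 had 0 reads in BV2_PBS, and Adam8 was higher by 2.99 ± 0.32. Of 5 plasminogen-activation and convertase genes 3 were lower and 1 higher. Plat averaged 0.292 CPM in BV2_PBS against 194 CPM in PBS, the convertases Furin and Pcsk7 changed by -3.73 ± 0.42 and -2.57 ± 0.34, and Plau (urokinase) was higher by 3.60 ± 0.30. Of 7 other serpins, inhibitors and cofactors 4 were lower and 3 higher. Pcolce averaged 0.0956 CPM in BV2_PBS against 238 CPM in PBS, the collagen chaperone Serpinh1 averaged 0.759 CPM in BV2_PBS against 11797 CPM in PBS, and Cst3 (cystatin C) was higher by 2.86 ± 0.22.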

How the data were processed

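The deposited values were raw read counts per gene symbol, whole numbers with no normalisation by the authors. Libraries were made from polyadenylated RNA in cell lysates and read on an Ion GeneStudio S5, per the labels' protocols. Bowtie2 2.2.5 was used, per the submitters' processing notes. No source used here names the genome build, annotation, counting program or strand use, so overlapping genes may share reads. Groups came from the sample titles. Library totals ran from 2762287 to 7391991 counts, which leaves genes with few reads imprecise. Replicates differed by 2.53 to 60.6 times the chi-square degrees of freedom, so each library counted as its own.

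Computed here, edgeR 4.0.16 in R 4.3.3 fitted quasi-likelihood models with a robust prior to counts scaled by TMM and filtered with filterByExpr (minimum count 10, minimum total 15), with Benjamini-Hochberg adjustment over all genes. The 15 libraries of 1C11NE, the 6 of BV2 and all 21 were fitted separately, without a replicate block. Errors are SDs of 3 libraries for CPM and SEs for log2 changes. Principal components and likeness used log2(CPM + 1). The fitting code was tested on simulated data with known changes. Alternatives were DESeq2 size factors, no filter, DESeq2 1.42.0, limma-voom (limma 3.58.1), a replicate block, only the groups compared, leaving out each library, and leaving out PBS-CM replicate 1 with PBS-CM+ACR replicate 3. The genes, the wider lists, the markers and the alternatives were chosen with earlier results of these data known. All 10 genes are described, and from the wider lists at most 4 called genes a list and comparison, by smallest adjusted p. Some genes that these rules pick are not reported. Overlapping genes came from GENCODE M21, promoters from RefSeq GRCm38.p6.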

Additional observations from a re-analysis of the deposited data

Results flagged for a closer look

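Mmp19, called in neither line, had acrylamide and vehicle libraries that did not overlap, with opposite signs in the 2 lines. It was at 10.5 to 16.2 CPM in BV2_ACR, above all BV2_PBS libraries (6.70 to 8.74 CPM, edgeR adjusted p = 0.0518), and at 3.21 to 4.72 CPM in ACR, below all PBS libraries (6.03 to 10.0 CPM, edgeR adjusted p = 0.154). The difference between the responses was 1.78 ± 0.43 on the log2 scale and missed the threshold (edgeR adjusted p = 0.0556). It was called in 4 of 19 alternatives, among them the fit without the 2 libraries that stood apart (edgeR adjusted p = 0.0187). Those libraries belong to none of the groups compared. The difference was not called when any 1 library of those groups was left out (edgeR adjusted p of 0.0541 to 0.162). Tmem198b shares exon sequence with Mmp19.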

How the results depend on the processing

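Among single genes, 41 results had an unadjusted p under 0.05 or were called in some setting, and they gave 557 values under the alternatives. Of these none reversed in direction, 488 stayed on their side of the threshold, 45 lost a call and 24 gained a call. The other 43 results, not called in any setting, gave 635 values, of which 34 in 18 results reversed in direction. Timp2 reversed in 5 of 13 alternatives for ACR against PBS and in 4 for ACR-CM against PBS-CM+ACR. Counts of called genes among the 10 moved as follows. For ACR-CM against PBS-CM the count was 1, and it was 2 with no filter, 3 with DESeq2, 0 with limma-voom, 2 without both libraries that stood apart, 0 with only the groups compared, and 0 without any 1 of the libraries of these groups. For ACR-CM against PBS-CM+ACR the count was 0, and it was 1 with DESeq2 and 1 without both such libraries. For PBS-CM+ACR against ACR the count was 3. It was 4 with DESeq2, 2 with the replicate block, 5 without both such libraries and 1 with only the groups compared. Leaving out any 1 of the libraries compared gave 1 to 3. For PBS-CM against PBS the count was 3. It was 2 with no filter, 2 with the replicate block, 4 without both such libraries and 1 with only the groups compared. Leaving out any 1 of the libraries compared gave 1 to 4. For ACR against PBS the count was 2. It was 3 with DESeq2, 3 without both such libraries, and 1 to 2 when any 1 of the libraries compared was left out. For BV2_ACR against BV2_PBS the count was 1, and it was 0 with DESeq2 size factors, no filter, DESeq2 or limma-voom and 0 to 2 when any 1 of the libraries compared was left out. For the difference between lines the count was 0, and it was 2 with no filter, 1 with DESeq2, 2 without both such libraries and 2 with only the groups compared. The cause was not tested.

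Replicate numbers did not clearly pair the samples: deviations of same-numbered libraries correlated at -0.60 to 0.49, and in none of 8 comparisons did all 3 pairs exceed 0.1. In BV2_ACR against BV2_PBS these correlations were 0.036 to 0.133, and the block moved the calls over all genes from 1797 to 2355. Pairing in BV2 was thus not settled. With the replicate block, the count was 0 for ACR-CM against PBS-CM and 2 for BV2_ACR against BV2_PBS. The block also ended the calls of Timp2 in PBS-CM against PBS (adjusted p = 0.0632) and of Adamts1 in PBS-CM+ACR against ACR (adjusted p = 0.0768). Over all genes, the calls for ACR against PBS numbered 148, against 336 with DESeq2, 351 with no filter, 554 without the libraries that stood apart and 362 with only the groups compared. For PBS-CM against PBS they numbered 571, against 1282 with DESeq2, 1372 with no filter, 309 with the block, 4479 without the libraries that stood apart and 210 with only the groups compared. In the same order, PBS-CM+ACR against ACR had 497 calls, against 877, 1080, 273, 3133 and 151. PBS-CM+ACR against PBS-CM had 47, against 129, 136, 21, 62 and 0, and ACR-CM against PBS-CM had 116, against 305, 459, 56, 174 and 15. Leaving out 1 library moved the calls over all genes to between 71 and 109 for ACR against PBS, 106 and 3233 for PBS-CM against PBS (3233 without PBS-CM replicate 1), and 154 and 1610 for PBS-CM+ACR against ACR (1610 without PBS-CM+ACR replicate 3). It moved them to between 35 and 93 for ACR-CM against PBS-CM, 11 and 73 for PBS-CM+ACR against PBS-CM, and 913 and 1883 for BV2_ACR against BV2_PBS. Depth limits Timp3, Adamts5 and Mmp19, which had few reads in many libraries.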
